A study of Sus scrofa with 11 samples.

Results

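The 9 genes described here encode the phagocyte NADPH oxidase and its relatives: CYBB, CYBA, NCF1, NCF4, RAC2, NOX4, NOX1, DUOX1 and DUOX2. They were chosen by name from the 30376 genes with expression values in day 10 skin wounds of Yucatan minipigs. All but CYBB stood under these names, and CYBB stood under GP91-PHOX, an older name that the RefSeq entry of the same gene identifier pairs with CYBB. Each library was poly-A RNA from a whole full-thickness punch wound made on the back, 7 wounds of a diabetic animal and 4 of a non-diabetic animal. Both animals were female. The diabetic minipig was 6 months old when diabetes was induced by intravenous streptozotocin (STZ), was given insulin daily from the week after induction until the week before wounding, and was wounded 60 days after induction. The non-diabetic minipig received the same wounds, and its age is not given in the sources used here. Because each group is a single animal, diabetes and any other difference between the 2 animals cannot be told apart, and the spread behind every test is the spread between wounds of one animal.

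NADPH oxidases are membrane enzymes that carry electrons from NADPH to oxygen and so make superoxide or hydrogen peroxide. In neutrophils and macrophages the catalytic subunit gp91phox (CYBB, also NOX2) sits in the membrane with p22phox (CYBA) and is switched on when cytosolic subunits, among them p47phox (NCF1) and p40phox (NCF4), and the GTPase RAC2 join it, an event that kills engulfed microbes and is known for its part in keeping wounds free of infection. NOX4 also uses p22phox, needs none of the cytosolic subunits, and is known from fibroblasts, myofibroblasts and endothelium, whereas DUOX1 and DUOX2 release hydrogen peroxide from epithelia and mature only with their partners DUOXA1 and DUOXA2.

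The DUOX genes lie together on chromosome 1 of Sscrofa11.1, and the stretch that separates DUOX2 from its maturation factor is printed because the pair is read outward from it. In the RefSeq annotation the order is DUOX1 on the minus strand (126572533 to 126603084), DUOXA1 on the plus strand 2057 bases away, DUOXA2 on the minus strand 894 bases further on, and DUOX2 on the plus strand (126620468 to 126641406). In all 108 bases lie between the annotated starts of DUOXA2 and DUOX2, at chr1:126620360-126620467. On the plus strand, towards DUOX2, with a TATAAA match on the minus strand in capitals, they read:
DUOXA2 to DUOX2: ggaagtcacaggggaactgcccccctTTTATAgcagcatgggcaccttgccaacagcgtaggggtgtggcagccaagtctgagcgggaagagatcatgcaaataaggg
The match lies 26 bases from the annotated start of DUOXA2 and 76 from that of DUOX2. TATAAA on either strand occurs in the 108 bases upstream of 4.5% of the 19548 protein-coding genes on placed chromosomes.

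The phagocyte members lie apart from each other. CYBB lies on chromosome X from 33654656 to 33678346 with 11 exons, CYBA on chromosome 6 from 1015212 to 1021422, and NCF1 on chromosome 3 from 11820367 to 11834394. RAC2 (10553986 to 10571082) and NCF4 (10876147 to 10994002) share chromosome 5, with 305064 bases between them. The myeloid transcription factor PU.1, made by SPI1, binds a core that was searched as GAGGAA on both strands in the 250 bases upstream of each annotated start. It was found ahead of NCF1 and NCF4, 2 of the 9 genes (22.2%), against 22.0% of the 19548 protein-coding genes. The matches, in capitals within 30 bases read on the strand of the gene (TTCCTC where GAGGAA lies on the other strand), are printed as the only ones among the members.
NCF1, chr3:11820193-11820222, plus strand: ccgcgggagcccGAGGAAgcccagaaaccg
NCF1, chr3:11820282-11820311, plus strand: gacacaggcgacTTCCTCtttccaacctat
NCF4, chr5:10994195-10994224, minus strand: cgccttctctatTTCCTCctcctcctcctt
The NCF1 model holds 1179 exonic bases, all coding, so its annotated start is that of the coding sequence.

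The deposited values were FPKM, reads scaled by gene length and library size, which allow levels of different genes to be compared. Between 28314785 and 40168372 reads per wound fell on genes. Diabetic replicate 4 and non-diabetic replicate 1 stood apart from the other 9 wounds in a list of 15 keratinocyte genes, whose summed FPKM was 63.7 and 305 in these wounds and 2125 to 7782 in the others. The neutrophil list of 11 genes was also low there, with summed FPKM of 74.7 and 334 against 3835 to 12645, mainly from S100A8, S100A9 and S100A12, which keratinocytes of wounds also express. Without these 2 wounds the log2 fold changes described below were -0.43 for CYBB, 0.19 for CYBA, 0.20 for NCF1, 0.41 for NCF4, 0.36 for RAC2, -0.62 for NOX4, -0.059 for DUOX1 and 0.027 for DUOX2, none of them called by limma. In bulk tissue, fewer cells of a type and less RNA per cell cannot be told apart.

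Over all wounds the levels of the members spanned several orders of magnitude. By median FPKM the order was CYBA (97.4), CYBB (10.8), NCF1 (6.53), DUOX1 (5.88), NCF4 (5.84), RAC2 (3.32), DUOX2 (1.09), NOX4 (0.994) and NOX1 (0.0154). CYBA was above CYBB in all 11 wounds, NCF4 above RAC2 in all 11, and RAC2 above DUOX2 in all 11. CYBB was above NCF1 in 9 of 11 wounds, and the order of NCF1 and DUOX1 held in 6 of 11, as did that of DUOX1 and NCF4, so these neighbours were not separated beyond their spread. DUOX2 was above NOX4 in 5 of the 7 diabetic wounds and in 0 of the 4 non-diabetic wounds. Gene models affect these levels, since FPKM divides by the full exonic length: coding sequence made up 90.6% of the exonic bases of CYBB, 18.4% of the 9458 exonic bases of NOX4 and 12.6% of those of RAC2.

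**Figure D1:**
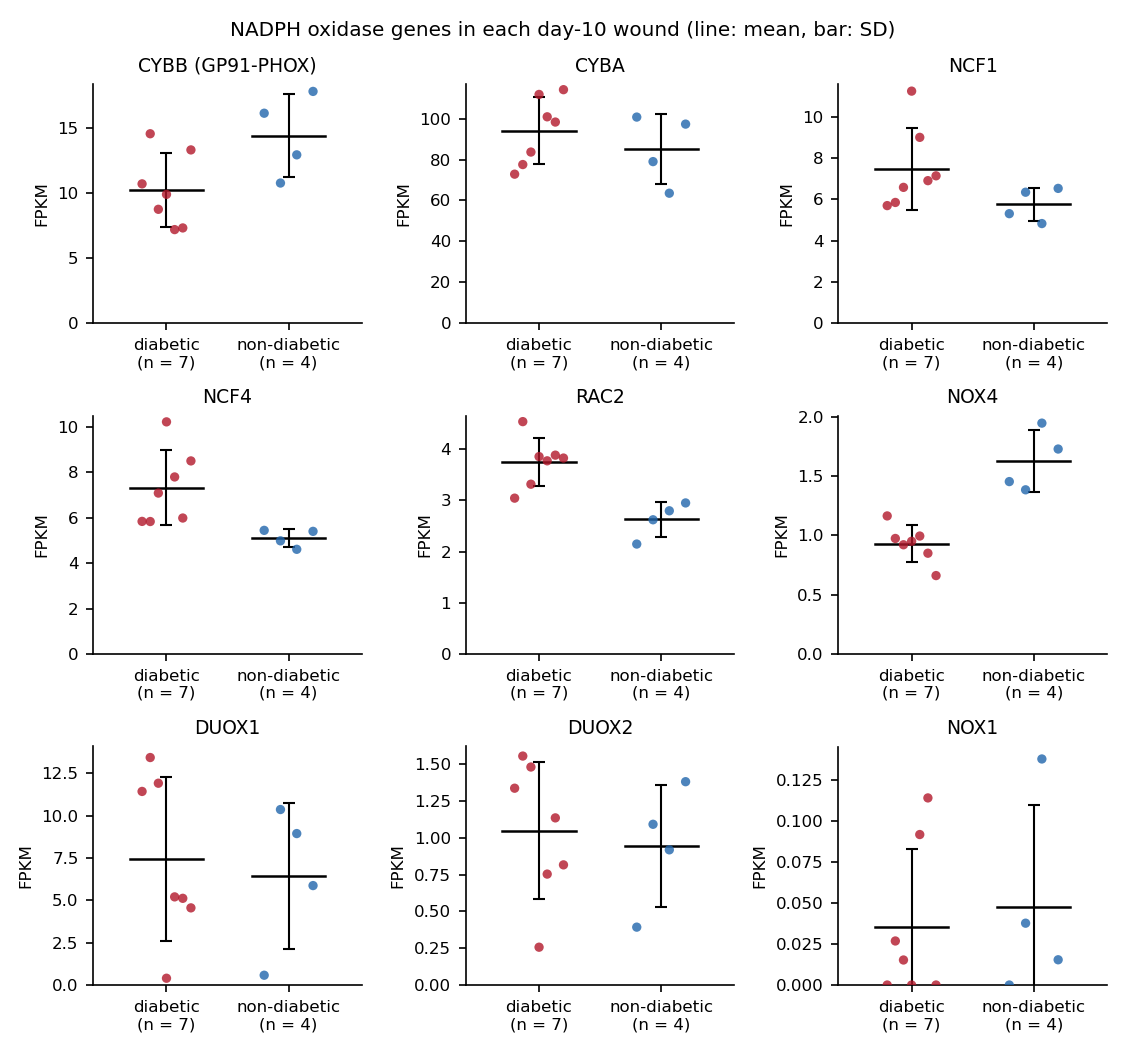
FPKM of each of the 9 genes in the 7 diabetic wounds (red) and the 4 non-diabetic wounds (blue), 1 point per wound, with the group mean as a line and the SD as a bar on linear axes from 0, which end the lower SD bars of NOX1. NOX4 lies lower in every diabetic wound than in any non-diabetic one, NCF4 and RAC2 lie higher in every diabetic wound, and DUOX1 has 1 point per group near 0.

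Among the 8 members that passed the filter on low values (at least 0.5 FPKM in at least 4 libraries), NOX4 was the one called between the groups, lower in diabetic wounds. A call here means a Benjamini-Hochberg adjusted p under 0.05 over all 13956 genes tested and an absolute log2 fold change over 0.5, by limma on log2(FPKM + 0.5), a scale that understates changes of low genes. Thus 1 of 8 members was called lower, where 1.66% of all tested genes were, and 0 of 8 were called higher, where 1.35% were. At an unadjusted p under 0.05 with no fold limit, 4 of the 8 passed (CYBB, NCF4, RAC2 and NOX4, limma), where 18.4% of all tested genes did. Every diabetic wound was above every non-diabetic wound for 2 of the 8, NCF4 and RAC2, against 2.69% of all tested genes, and below for 1, NOX4, against 2.96%. The median log2 fold change of the 8 was 0.19, with 6 above 0. That of all genes tested was 0.014, with 7302 of 13956 above 0.

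CYBB, the catalytic subunit of the phagocyte enzyme, was the phagocyte member with lower values in the diabetic group. It had 16.1, 10.8, 12.9 and 17.8 FPKM in non-diabetic replicates 1 to 4, and in the diabetic wounds a lowest value of 7.19, a median of 9.90 and a highest of 14.6. Of the diabetic wounds, 5 lay below every non-diabetic wound, and replicates 2 and 7 lay within the non-diabetic range. The means were 10.2 ± 2.85 (SD, n = 7) and 14.4 ± 3.16 FPKM (SD, n = 4), a log2 fold change of -0.49 (standard error 0.21, 95% interval -0.94 to -0.04) that did not pass (adjusted p = 0.233, limma, and p = 0.0576 in a two-sided exact permutation test). The wounds held 298 to 1076 reads of CYBB each.

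CYBA, the p22phox subunit shared by gp91phox and NOX4, was the most abundant member in every wound. Its values were 101, 79.0, 63.5 and 97.4 FPKM in the non-diabetic wounds and 72.9 to 114 with a median of 98.4 in the diabetic wounds. The groups overlapped, with means of 94.2 ± 16.4 (SD, n = 7) and 85.2 ± 17.3 FPKM (SD, n = 4) and a log2 fold change of 0.15 (95% interval -0.20 to 0.50, adjusted p = 0.680, limma). Library names begin with L or R, letters whose meaning is not given in the sources used here, and CYBA was the phagocyte member whose direction differed between them. Its log2 difference was -0.19 among L-named wounds (3 diabetic, 2 non-diabetic) and 0.43 among R-named wounds (4 and 2), with CYBB at -0.24 and -0.70.

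NCF1 and NCF4, the cytosolic organizer p47phox and its companion p40phox, both had higher means in the diabetic wounds, and neither was called. NCF1 had 5.31, 6.35, 4.83 and 6.53 FPKM in the non-diabetic wounds, against 5.70 to 11.3 with a median of 6.91 in the diabetic wounds. The highest, 11.3, was diabetic replicate 4, and 5 of the 7 diabetic wounds lay above the non-diabetic range. On the log2 scale NCF1 differed by 0.33 with a standard error of 0.17, which passed neither limma (adjusted p = 0.344) nor the exact permutation test (p = 0.106).
NCF4 had 5.44, 4.98, 4.61 and 5.40 FPKM in the non-diabetic wounds and 5.83 to 10.2 with a median of 7.08 in the diabetic wounds. The groups did not overlap, though the lowest diabetic value was 5.83 and the highest non-diabetic one 5.44. The log2 fold change of NCF4 was 0.46 (standard error 0.15), with an adjusted p = 0.125 by limma and p = 0.0152 in the exact permutation test. NCF4 overlaps PVALB on the opposite strand, the libraries kept strand, and whether counting used it is not given in the sources used here.

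RAC2, the Rac GTPase of blood cells, had 2.15, 2.62, 2.80 and 2.95 FPKM in the non-diabetic wounds and 3.04 to 4.54 with a median of 3.83 in the diabetic wounds. All 7 diabetic wounds lay above all 4 non-diabetic wounds. With means of 3.75 ± 0.473 (SD, n = 7) and 2.63 ± 0.348 FPKM (SD, n = 4), the log2 fold change was 0.44 (standard error 0.11), and the exact permutation test gave p = 0.00303, the smallest that 330 splits into 7 and 4 allow. RAC2 was short of both parts of the call, with an adjusted p = 0.0567 by limma. On reads recovered from the FPKM, limma with voom gave a log2 fold change of 0.50 (adjusted p = 0.0597). The study, by its own test of raw counts, names RAC2 among the genes of natural killer cell cytotoxicity, a pathway it found enriched in diabetic wounds.

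NOX4, the oxidase of stromal cells, fell in the diabetic wounds to 0.572 times its non-diabetic mean. It lies on chromosome 9 from 22622105 to 22776691 and had 1.45, 1.38, 1.94 and 1.73 FPKM in the non-diabetic wounds. In the diabetic wounds it had 0.661 to 1.16 FPKM with a median of 0.950, each wound below the lowest non-diabetic one. The means were 0.930 ± 0.153 (SD, n = 7) and 1.63 ± 0.259 FPKM (SD, n = 4), from 161 to 411 and 393 to 640 reads per wound, and the log2 fold change was -0.57 with a 95% interval from -0.83 to -0.31 (adjusted p = 0.0240, limma, exact permutation p = 0.00303). The direction held in L-named wounds (-0.34) and R-named wounds (-0.78). The call was lost without non-diabetic replicate 1 (adjusted p = 0.0567), replicate 3 (0.0915) or replicate 4 (0.0769), and without diabetic replicate 4 and non-diabetic replicate 1 together (0.0783, limma), with log2 fold changes from -0.50 to -0.62.

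DUOX1 and DUOX2, the epithelial dual oxidases, had group means that differed by less than their spread. DUOX1 had 0.578, 10.4, 8.95 and 5.88 FPKM in the non-diabetic wounds, and 0.401 to 13.4 with a median of 5.21 in the diabetic wounds. The values near 0 were those of diabetic replicate 4 and non-diabetic replicate 1, the wounds low in keratinocyte genes. DUOX1 was 11.4 to 13.4 FPKM in the L-named diabetic wounds and 0.401 to 5.21 FPKM in the R-named ones.
The log2 fold change of DUOX1 was 0.23 with a 95% interval from -1.50 to 1.97 (adjusted p = 0.912, limma), and it was -0.06 without the wounds low in keratinocyte genes. DUOX2 had 0.394, 1.09, 0.919 and 1.38 FPKM in the non-diabetic wounds and 0.257 to 1.56 with a median of 1.14 in the diabetic wounds, again lowest in the same wound of each group. Its log2 fold change was 0.08 (95% interval -0.54 to 0.70, adjusted p = 0.916, limma). Between L-named and R-named wounds the group difference changed sign for both. It was 1.90 and -1.16 for DUOX1 and 0.71 and -0.45 for DUOX2 on the log2 scale. The wounds low in keratinocyte genes fall on opposite letters. Non-diabetic replicate 1 is 1 of 2 L-named non-diabetic wounds, and diabetic replicate 4 is 1 of 4 R-named diabetic wounds. The part of these wounds in the sizes of the differences was not tested.

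The DUOX genes and DUOXA1 were lowest in the same 2 wounds. DUOXA1 had 0.746 FPKM in diabetic replicate 4 and 1.15 in non-diabetic replicate 1, against 12.6 to 40.7 FPKM in the other 9 wounds. DUOXA2 was lower than DUOXA1 in every wound, at 0.220 to 2.10 FPKM and 9 to 118 reads. With group means removed, Pearson's r over the 11 wounds was 0.93 between DUOX1 and DUOX2 and 0.98 between DUOX1 and DUOXA1, and the latter was 0.88 over the 9 wounds without the 2 low ones. The other genes most like DUOX1 by this measure were FAM83F (0.99), MPZL2 (0.98), AP1M2 (0.98) and the desmosomal gene DSG3 (0.98). These r values describe wounds that share 2 animals and, for DUOX1, a gap between 2 wounds and the rest.

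**Figure D2:**
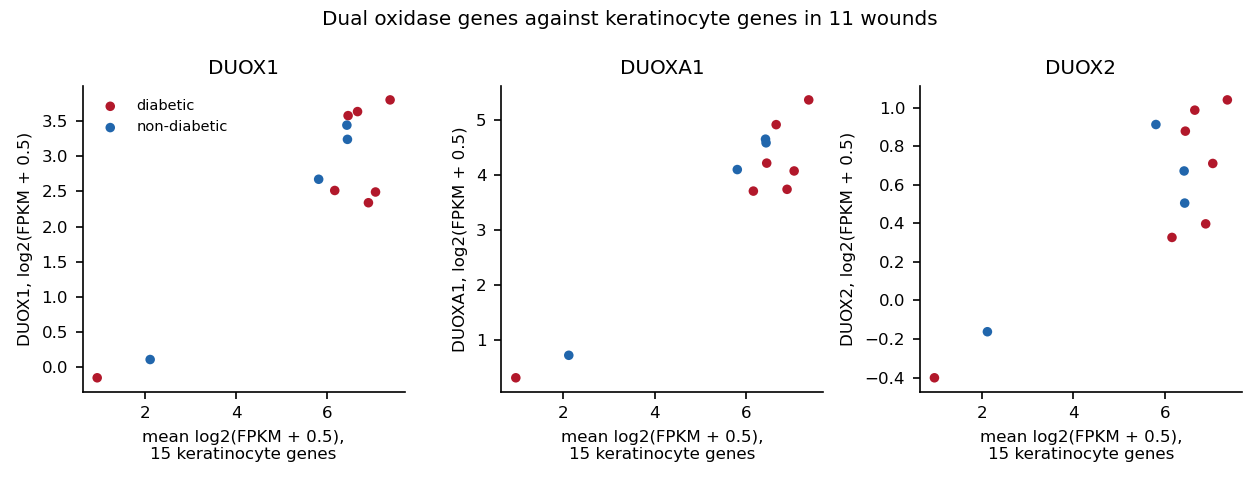
DUOX1, DUOXA1 and DUOX2 in log2(FPKM + 0.5) against the mean log2(FPKM + 0.5) of 15 keratinocyte genes, 1 point per wound, diabetic in red and non-diabetic in blue. A diabetic and a non-diabetic wound stand low on both axes, at list means of 0.958 and 2.12, and the other 9 wounds have list means from 5.81 to 7.37.

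NOX1, the oxidase of colon epithelium and vascular smooth muscle, lies on chromosome X from 82540664 to 82575811, overlaps CSTF2 on the opposite strand, and stood at the detection limit. It had 0 to 16 reads per wound and 0 reads in 4 of the 11 wounds, where 3 reads, the limit that a count of 0 allows, correspond to 0.0202 to 0.0349 FPKM across the libraries. The means were 0.0354 FPKM (n = 7) and 0.0478 FPKM (n = 4), and no difference was detectable at this depth (exact permutation p = 0.661).

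The phagocyte oxidase was next compared with NOX4 and the DUOX genes within each wound, as the log2 ratio of FPKM + 0.5. Because 0.5 is added, this ratio takes out a scaling shared by both genes only in part, least for low genes such as NOX4. Each of the 5 phagocyte members was set against NOX4, DUOX1 and DUOX2, 15 pairs in all, with two-sided exact permutation tests and Benjamini-Hochberg adjustment over the pairs. Against NOX4, 4 of the 5 ratios were higher in diabetic wounds, and these share the NOX4 values. The ratio of RAC2 to NOX4 was 0.44, 0.73, 0.43 and 0.63 in the non-diabetic wounds and 1.09 to 1.90 in the diabetic wounds, a difference of 1.01 (exact permutation p = 0.00303, adjusted p = 0.0227). The difference was 1.03 for NCF4 (exact permutation p = 0.00303, adjusted p = 0.0227), 0.90 for NCF1 (exact p = 0.00606, adjusted p = 0.0303) and 0.72 for CYBA (exact p = 0.0121, adjusted p = 0.0455). The CYBA ratio passed in only 3 of the 14 alternatives tried for the pairs, against 12 for each of the other 3. For RAC2, NCF4 and NCF1 the ratio to NOX4 was higher in each of the 7 diabetic wounds than in every non-diabetic one, and for CYBA in 6 of 7.
For CYBB the ratio to NOX4 was 2.36 to 3.57 in diabetic and 2.46 to 3.09 in non-diabetic wounds, a difference of 0.08 (exact permutation p = 0.755). Without non-diabetic replicate 3, the wound with the highest NOX4, 0 of the pairs passed the adjustment. The differences were 0.97 for RAC2, 0.92 for NCF4, 0.76 for NCF1 and 0.52 for CYBA. There 120 splits remain, so no exact permutation p can be under 0.00833. With as many splits, 3 or 4 pairs passed without each of the other non-diabetic wounds. Without diabetic replicate 4 and non-diabetic replicate 1 together, where 84 splits remain, 0 of the pairs passed.

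Against DUOX1 and DUOX2, 0 of the 10 ratios passed the exact permutation test, adjusted or not. The differences ran from -0.73 for CYBB against DUOX1 to 0.38 for NCF4 against DUOX2. Within the diabetic group alone the ratio of CYBB to DUOX1 ranged from -0.43 to 3.53 on the log2 scale, with diabetic replicate 4 the highest.

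**Figure D3:**
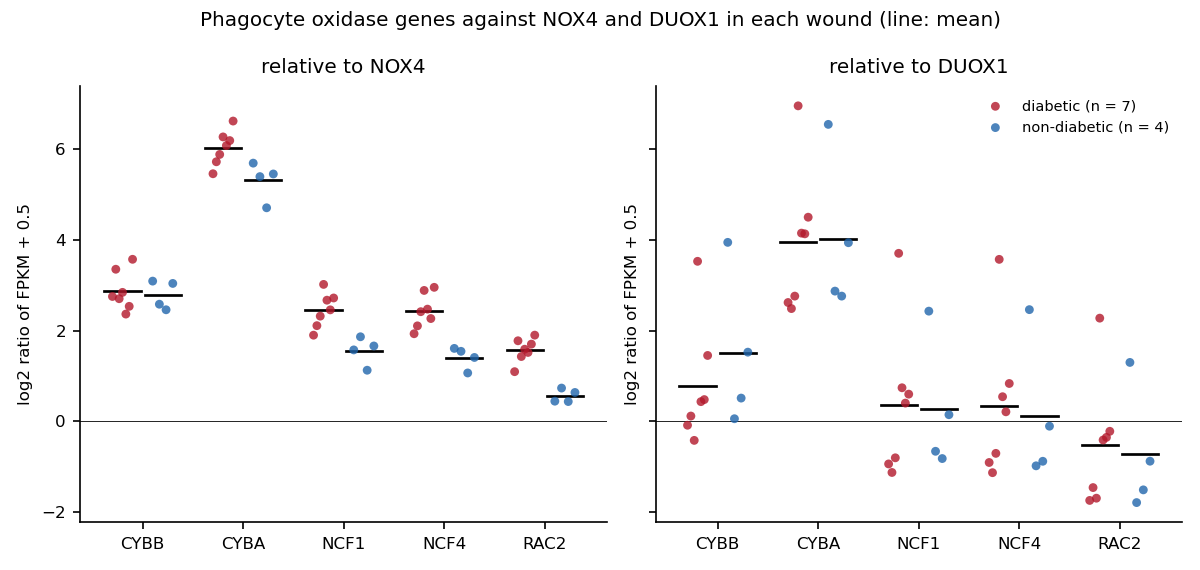
Log2 ratio of each phagocyte oxidase gene to NOX4 (left) and to DUOX1 (right) in each wound, 7 diabetic in red and 4 non-diabetic in blue, with group means as lines. The ratios of NCF1, NCF4 and RAC2 to NOX4 do not overlap between groups, those of CYBB do, and the ratios to DUOX1 overlap for all 5 genes.

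Genes that mark phagocytes were examined beside these results. In the list of 14 myeloid genes, 3 were called higher in diabetic wounds (limma) and 0 lower. Of all tested genes, 1.35% were called higher and 1.66% lower. The 3 were ITGAM (3.72 and 1.26 FPKM), the lipopolysaccharide co-receptor CD14 (41.4 and 23.7 FPKM) and the mannose receptor MRC1 (22.1 and 13.0 FPKM). The median log2 fold change of the list was 0.36, its summed FPKM was 777 to 2773 in diabetic and 567 to 1939 in non-diabetic wounds, and none of its genes was at 0 in any wound. The lowest sum of each group was that of diabetic replicate 4 and non-diabetic replicate 1, with at least 1035 in the other 9 wounds. By the mean log2 level of the list, neither wound was the lowest of its group. Diabetic replicate 4 was at 5.18 (diabetic mean 5.13) and non-diabetic replicate 1 at 4.70 (non-diabetic mean 4.78). LYZ was the most abundant gene of the list by mean, at 1183 and 879 FPKM, but had 38.9 and 57.9 FPKM in those 2 wounds. PTPRC, the marker of all leukocytes, had means of 11.8 and 11.7 FPKM in diabetic and non-diabetic wounds. The part of these cells in the values of NCF1, NCF4, RAC2 and CYBB was not tested by any separation of cells.
CYBB was also set against the mean log2 level of this list in the same wound, a comparison chosen after the data had been seen. By this measure CYBB was lower on average in diabetic wounds, a difference that did not pass adjustment. The log2 difference for CYBB was -0.84, with 6 of 7 diabetic wounds below each of the 4 non-diabetic wounds (exact permutation p = 0.00909, adjusted p = 0.0727 over the 8 such comparisons). It was -0.75 without diabetic replicate 4 and non-diabetic replicate 1 (exact p = 0.0357), and -0.76 to -0.98 with each wound left out in turn. By the same measure CYBA was at -0.20, NCF1 at -0.02, NCF4 at 0.10 and RAC2 at 0.09, each with an exact permutation p of at least 0.121.

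**Figure D4:**
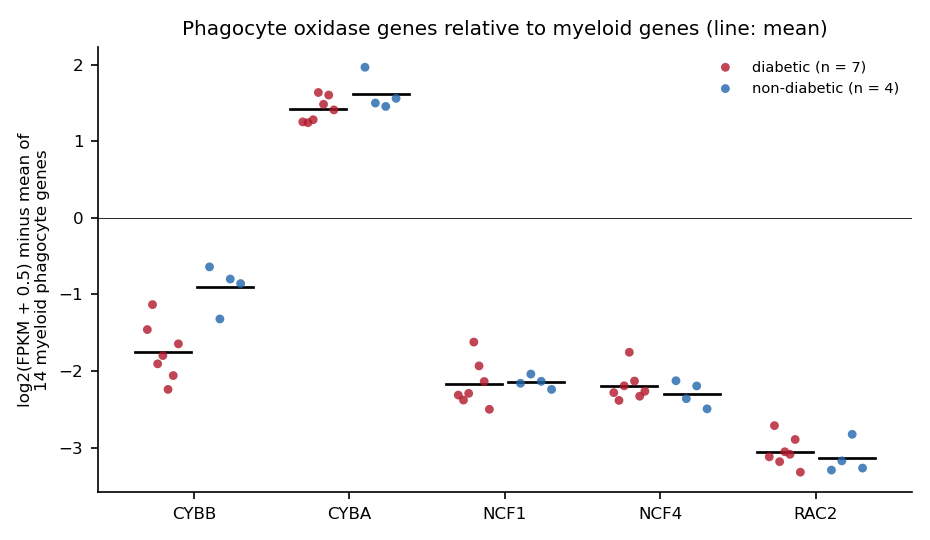
Log2(FPKM + 0.5) of the 5 phagocyte oxidase genes minus the mean of 14 myeloid phagocyte genes in the same wound, 7 diabetic wounds in red and 4 non-diabetic in blue, with group means as lines. CYBB lies at -2.24 to -1.13 in diabetic and -1.32 to -0.64 in non-diabetic wounds, and the other 4 genes overlap between groups.

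CYBB was weakly correlated with the other phagocyte members from wound to wound. With group means removed, its r over the 11 wounds was 0.10 with CYBA, -0.28 with NCF1, 0.05 with NCF4 and 0.21 with RAC2. RAC2 was likewise weakly correlated with CYBA (0.02), NCF1 (0.20) and NCF4 (0.00015), whereas NCF1 and NCF4 had 0.83, CYBA and NCF4 0.75 and CYBA and NCF1 0.67. The genes most like CYBB by this measure were RNASE6 (0.93), a ribonuclease of monocytes, FAM198B (0.91), 2 genes without a symbol of their own and NCKAP1L (0.89), an actin regulator of blood cells. RNASE6 had 10.6 and 10.4 FPKM and NCKAP1L 11.7 and 11.6 FPKM in diabetic and non-diabetic wounds. FAM198B, with 9.96 and 15.2 FPKM, had a log2 fold change of -0.60 that limma did not call (adjusted p = 0.0598). FCGR1A, the high-affinity IgG receptor of macrophages, was the myeloid marker with the lowest fold change (log2 fold change -0.86, adjusted p = 0.101, limma). It had 2.51 to 3.87 FPKM in non-diabetic and 0.782 to 2.58 FPKM in diabetic wounds, from 35 to 189 reads per wound. Of the 14 myeloid genes, 12 had a log2 fold change above 0.

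NOX4 was set beside stromal genes in the same way. Of 12 fibroblast and myofibroblast genes, 0 were called by limma in either direction, where 1.35% of all tested genes were called higher and 1.66% lower. The median log2 fold change of the 12 was -0.15. Their summed FPKM was 20064 to 53961 in diabetic and 36118 to 67154 in non-diabetic wounds. The most abundant by mean over all wounds, COL3A1, had 12614 and 14812 FPKM, though COL1A1 (13069 FPKM) was above it in the diabetic mean, and none of the list was at 0 in any wound. Relative to the mean of this list NOX4 was lower by a log2 difference of -0.38, with 4 of 7 diabetic wounds below every non-diabetic wound (exact permutation p = 0.212). The 8 endothelial genes, led by PECAM1 (91.8 and 90.4 FPKM), had a median of -0.02, and 0 were called by limma. The genes most like NOX4 across wounds were WWC2, C13H21orf91, DMTF1, AEBP2 and GPATCH8, each with an r of 0.95, and all 5 had an adjusted p of at least 0.0813 between the groups (limma). DUOX1 and DUOX2 relative to 15 keratinocyte genes were at -0.50 and -0.66 (exact permutation p = 0.470 and 0.603).

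Among 33 further genes of the oxidase pathway and of redox control around it, 29 passed the filter. Of these, 1 was called higher, where 1.35% of all tested genes were, and 1 lower, where 1.66% were. SH3PXD2A, which makes the scaffold TKS5 that is related to p47phox and organizes oxidase complexes at invasive protrusions, fell from 20.2 ± 2.34 (SD, n = 4) to 13.7 ± 1.42 FPKM (SD, n = 7). Its values were 17.6 to 22.5 FPKM in non-diabetic and 11.9 to 16.0 FPKM in diabetic wounds, without overlap, and limma gave a log2 fold change of -0.54 ± 0.10 (standard error) with an adjusted p = 0.0150. TXNIP, a glucose-induced inhibitor of thioredoxin, rose from 88.3 ± 14.9 (SD, n = 4) to 169 ± 49.5 FPKM (SD, n = 7), and limma gave a log2 fold change of 0.90 ± 0.21 (standard error) with an adjusted p = 0.0388. The call of TXNIP was lost without any 1 of the 4 non-diabetic wounds or of diabetic replicates 3, 4 and 7, and that of SH3PXD2A without non-diabetic replicate 1 or 3.
The median log2 fold change of the 29 was 0.16, with 20 above 0. Of all 13956 genes tested, 7302 were above 0, with a median of 0.014.

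Of the other regulators among these genes, CYBC1, a chaperone for gp91phox, had 12.1 and 10.7 FPKM (adjusted p = 0.502, limma). RAC1, the Rac GTPase of most cells, was the most abundant gene of the list not called, with 162 ± 15.0 and 132 ± 12.1 FPKM and a log2 fold change of 0.30 (adjusted p = 0.108, limma). The diabetic wounds were all above the non-diabetic ones for 3 of the 29, against 2.69% of all tested genes. These were RAP1A (21.2 and 17.8 FPKM), a GTPase found with the cytochrome, SYK (5.75 and 4.98 FPKM) and TXNIP. SYK is a kinase upstream of the oxidase.
The superoxide dismutases SOD1, SOD2 and SOD3 had 48.7 and 42.7, 23.3 and 23.4, and 4.52 and 4.58 FPKM, none of them called by limma. NOX3, the oxidase of the inner ear, had 0 reads in every wound, and NOX5, NOXA1 and myeloperoxidase (MPO) did not pass the filter.

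**Figure D5:**
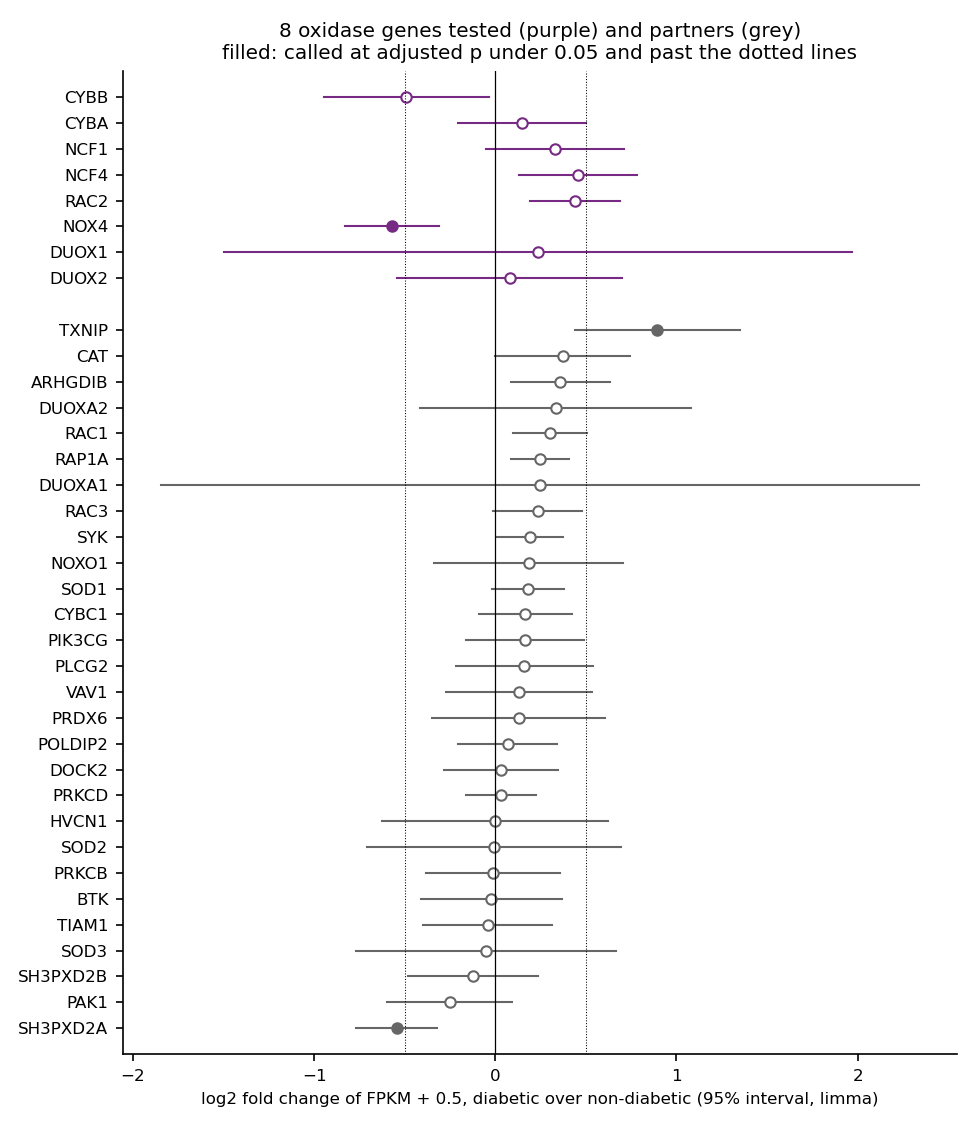
Log2 fold change of FPKM + 0.5, diabetic over non-diabetic, with 95% intervals from limma, for the 8 members tested (purple) and the partners reported here (grey), filled where called. NOX4 and SH3PXD2A lie below the lower dotted line at -0.5 and TXNIP above the upper one at 0.5, and the widest intervals are those of DUOX1 and DUOXA1.

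Markers of other cells in the wounds moved as follows, where 1.35% of all tested genes were called higher and 1.66% lower (limma). Of 15 keratinocyte genes, KRT15 was called higher (15.5 and 3.35 FPKM, limma) and 0 lower, KRT5, the most abundant, had 1536 and 1005 FPKM, and IVL and KLK5 were at 0 reads in diabetic replicate 4. Of 7 lymphocyte genes tested, the B cell receptor genes CD79A (4.34 and 0.919 FPKM) and CD79B (1.31 and 0.266 FPKM) were called higher and 0 lower, with summed FPKM of 24.0 to 53.8 in diabetic and 16.2 to 26.5 in non-diabetic wounds. RAC2 is also expressed in lymphocytes, and their part in its values was not tested. The most abundant lymphocyte gene not called was IL2RG (10.9 and 7.73 FPKM).
Of 9 neutrophil genes and 6 gland genes tested, 0 were called by limma. By mean over all wounds the most abundant were S100A12 (2677 and 3382 FPKM) and KRT19 (10.5 and 1.22 FPKM), the latter with a highest value of 42.1 FPKM in a diabetic wound, and in the non-diabetic wounds KRT23 (6.97 FPKM) was above it.
Over the 7 diabetic wounds, 56 relations between a member and the mean of a marker list were computed, and 0 passed adjustment. By Spearman's rho the closest were those of NCF1 and DUOX2 with the fibroblast and myofibroblast list, with 0.96 and -0.96 (exact permutation p = 0.00278, adjusted p = 0.0778 each) and Pearson's r of 0.83 (exact permutation p = 0.0288) and -0.77 (exact permutation p = 0.0387), both with adjusted p = 0.202, and r of 0.93 and -0.96 without the 2 wounds farthest from the median of the list. By Pearson's r the closest was DUOX1 with the neutrophil list (0.89, exact permutation p = 0.0542, adjusted p = 0.202). Its Spearman's rho was 0.50 (exact permutation p = 0.267), and r was 0.61 without the 2 farthest wounds, diabetic replicates 4 and 5. DUOX1 with the keratinocyte list also had an r of 0.89 (exact permutation p = 0.0482, adjusted p = 0.202). Without diabetic replicates 2 and 4, the farthest for that list, r was -0.27. DUOX2 with the keratinocyte list had an r of 0.87 (exact permutation p = 0.0240, adjusted p = 0.202), and 0.19 without the same 2 wounds. The smallest Pearson p was that of CYBA with the fibroblast and myofibroblast list (r = 0.89, exact permutation p = 0.00536, adjusted p = 0.202, Spearman's rho 0.86, exact permutation p = 0.0238), with an r of 0.78 without the 2 farthest wounds.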

How the data were processed

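Poly-A RNA of 11 wounds (7 diabetic, 4 non-diabetic, grouped by the sample labels) was sequenced as strand-keeping libraries. Per the labels and the methods, the authors trimmed reads with fastp, aligned them to Sscrofa11.1 with HISAT2 2.2.1 and counted them on genes with featureCounts 2.0.6. StringTie 2.2.3 is also named in the processing notes. The deposited unit was FPKM for 30376 genes; its formula is not given in the sources used here. Multiplied by gene length, all values were whole reads within 0.05 reads, with 28314785 to 40168372 reads per wound, and divisors of 0.854 to 1.18 times those sums, so values carried a scaling between libraries.

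The study tested raw counts. As the deposited values are FPKM, log2(FPKM + 0.5) of 13956 genes with at least 0.5 FPKM in at least 4 libraries was tested with limma 3.58.1 (lmFit, eBayes with trend), and single values with two-sided exact permutation tests over 330 splits. Members and lists were chosen with earlier results of these data known. The genes named are all members, called or most abundant genes of each list, and the 5 genes most like CYBB, NOX4 and DUOX1, by Pearson's r after subtracting group means. All other genes named were added after their values were seen. A gene counted among the partners is not reported here. KRT14 and CAMP matched no single gene of the table. Sequences came from RefSeq on Sscrofa11.1. Alternatives changed pseudocount, filter, scaling, spread estimate, weights, block, wounds and unit (voom on recovered reads), or added the L or R of the library name. Software was R 4.3.3 and, in Python 3.11.15, SciPy 1.17.1, pandas 2.3.3, numpy 2.4.6 and matplotlib 3.10.9.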

Additional observations from a re-analysis of the deposited data

Results flagged for a closer look

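A wound far from the others of its group, by Dixon's ratio at the 95% level, was found in 5 of the 48 groups of values examined (9 genes and 15 pairs, each in both groups), where chance flags about 1 group in 20. Of these, 4 were diabetic replicate 4. DUOX1 had 0.401 FPKM there, against 4.56 FPKM in the next lowest diabetic wound, and the log2 ratios to DUOX1 were 3.71 for NCF1 (next highest 0.74), 3.57 for NCF4 (0.83) and 2.27 for RAC2 (-0.23). In non-diabetic replicate 1, the log2 ratio of CYBA to DUOX2 was 6.83, with 5.70 the next highest. Both wounds were the ones low in keratinocyte genes, and the part of that in these values was not tested.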

How the results depend on the processing

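The counts of genes called in all, 188 higher and 231 lower, became 406 and 416 with library weights and 106 and 81 without diabetic replicate 4 and non-diabetic replicate 1, and ran from 104 to 236 and from 75 to 247 with each wound left out in turn. The lower call among the members (NOX4) became 0 with a pseudocount of 1 and without both wounds. With that pseudocount NOX4 was at -0.44, short of the fold limit, with an adjusted p = 0.0223 (limma). The count was 0 or 1 with single wounds left out. With library weights 1 member (NCF4) was called higher. The higher call among the partners became 0 without the filter, with quantile normalization, with the L or R letter and without both wounds. The lower call among the partners became 0 with library weights and without both wounds. Both were 0 or 1 with single wounds left out. The pairs with NOX4 that passed were 0 without both wounds and 0 to 4 with single wounds left out. The causes were not tested beyond the fewer wounds that these fits hold.

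Relative to the marker lists the direction turned for CYBA (-0.20), NCF1 (-0.024), DUOX1 (-0.50) and DUOX2 (-0.66). DUOX1 was at -0.057 and DUOX2 at -0.030 with library weights, DUOX1 at -0.059 without both wounds, and they ran from -0.52 to 0.69 and from -0.13 to 0.24 with single wounds left out. None of these values was called. The ratio of CYBB to NOX4 was -0.027 with a pseudocount of 1, and that of CYBA to DUOX1 0.25 without both wounds. With single wounds left out the pair differences that turned ran from -0.035 to 0.18 (CYBB/NOX4), -1.21 to 0.088 (CYBB/DUOX1), -0.59 to 0.76 (CYBA/DUOX1), -0.14 to 0.37 (CYBA/DUOX2), -0.46 to 0.81 (NCF1/DUOX1), -0.011 to 0.43 (NCF1/DUOX2), -0.32 to 1.00 (NCF4/DUOX1) and -0.26 to 0.88 (RAC2/DUOX1).

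The replicate numbers of the labels did not pair the wounds, since the deviations of same-numbered wounds from their group means correlated at -0.27, 0.22, 0.07 and -0.48 for replicates 1 to 4. Blocking on the replicate number left 11 higher calls and 5 lower calls among all genes, and 0 members and 0 partners in either direction, with NOX4 at -0.50 (adjusted p = 0.512, limma). The members other than NOX1 had at least 50 reads in every wound, and the part of depth in their values was not tested.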
